A study of Caenorhabditis elegans with 12 samples.

Results

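The zig genes zig-1 to zig-8 of Caenorhabditis elegans encode small proteins built mainly of a pair of immunoglobulin domains. The members were the genes with these 8 names, each represented by its brightest probe set among those that the array's annotation gives to exactly 1 gene. This found all 8 genes, on 9 of the 20766 probe sets with 1 gene, which stand for 17118 genes in all. The choice of probe sets used the gene names and the mean over all arrays, and no comparison between groups. The family itself was chosen with earlier results of these data known. RNA of whole N2 worms, the wild-type laboratory strain, was hybridised to 12 Affymetrix arrays, with 3 arrays for each of 4 groups. The groups were fed hermaphrodites, hermaphrodites fasted for 48 h from day 2 of adulthood, fed males, and males fasted in the same way. All worms were wild type, were grown at 20 C, had been given 5-fluoro-2'-deoxyuridine (FUdR) at 200 ug/ml since young adulthood, and were at day 4 of adulthood. The sexes had been parted by filtration. FUdR blocks DNA synthesis and keeps progeny from hatching, and the controls received it too.

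The family is best known from the nervous system. Several members, namely zig-1, zig-2, zig-3, zig-4, zig-5 and zig-8, are expressed in PVT, a tail neuron whose axon runs along the ventral nerve cord. ZIG-3 and ZIG-4 are secreted proteins that keep axons on their proper side of the ventral midline after development has placed them. ZIG-5 and ZIG-8 act with the L1-type adhesion protein SAX-7 to keep head neurons in place. ZIG-1 differs from the rest in having a predicted membrane-spanning segment, so that the name "secreted" fits the other members better.

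The arrays matched their sex labels. For vit-2, which encodes a yolk protein, the log2 signal was 14.09 ± 0.16 (SD, n = 3) in fed hermaphrodites and 7.38 ± 0.71 in fed males. For the yolk receptor gene rme-2 it was 12.76 ± 0.07 and 6.79 ± 0.11 in these groups. The male neuron gene lov-1 stood at 3.45 ± 2.65 and 7.74 ± 0.13, and spe-9, which acts in sperm, at 4.74 ± 0.80 and 6.34 ± 0.33. Values are log2 signals as deposited, a change is a difference of group means on this scale, and every group has n = 3 arrays. The number of arrays limits the precision. Probe sets entered the test if they exceeded log2 6.01, the 40th percentile of all values, on at least 3 arrays. Of the 8 members 7 were tested, and zig-8 was not. Changes were called at an adjusted p under 0.05 in limma, with Benjamini-Hochberg adjustment over all 15913 probe sets tested.

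Fasting changes were called for some members and not for others. In hermaphrodites zig-3 and zig-4 rose and zig-7 fell, and in males zig-2, zig-3 and zig-6 rose and zig-7 fell. That is 3 of 7 tested members in hermaphrodites, where 11.4% of all tested probe sets were called (5.72% higher and 5.69% lower when fasted). It is 4 of 7 in males, where 27.3% were called (19% higher and 8.31% lower). The median change of the tested members was 0.50 in hermaphrodites, beside 0.09 over all probe sets, and 0.16 in males, beside 0.23. By sex, zig-1, zig-5 and zig-7 were higher in males than in hermaphrodites, both fed and fasted. In fed worms 3 of 7 members were called, where 74.8% of probe sets were called (38.9% higher and 35.9% lower in males). In fasted worms 5 of 7 were called, where 70.7% of probe sets were (38% higher and 32.7% lower). Counts of that size among so many called probe sets say nothing particular about the members.

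**Figure D1:**
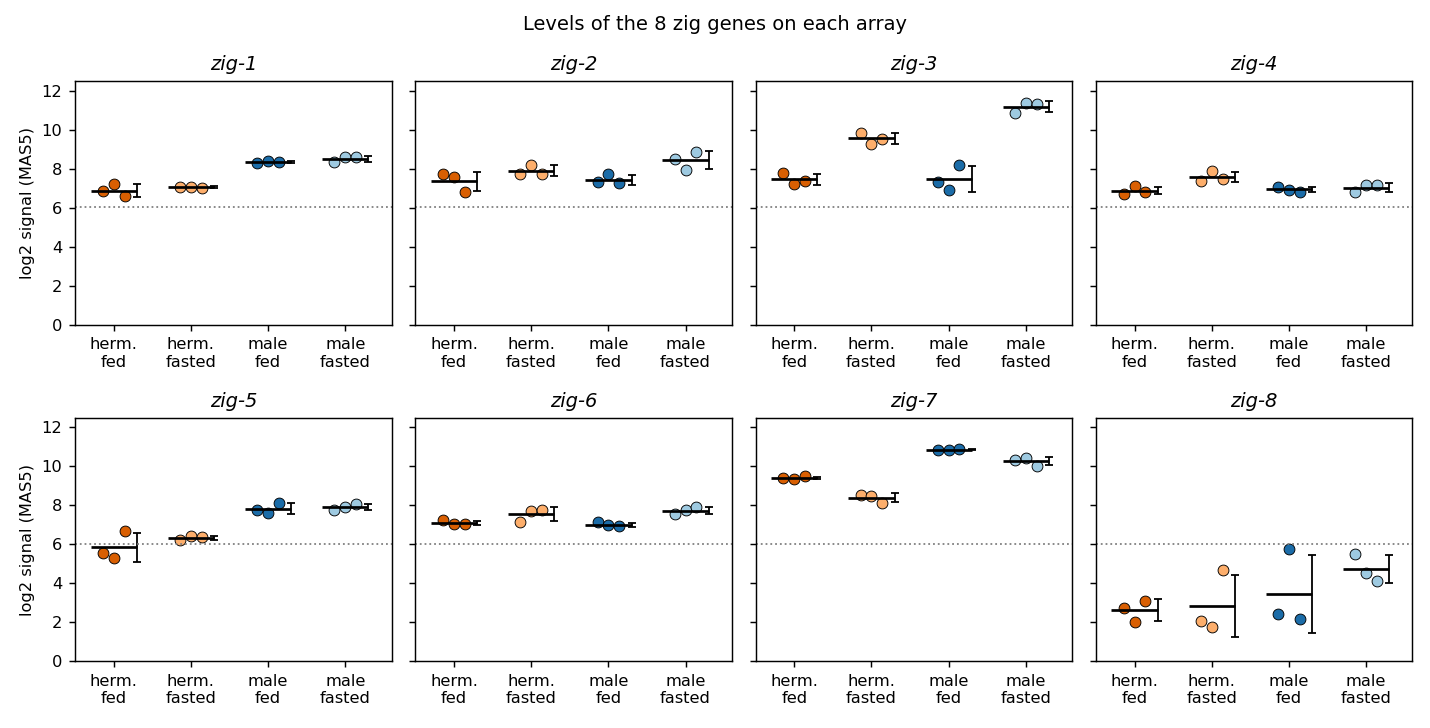
Log2 signal (MAS5) of each of the 8 zig genes on every array, in the 4 groups of 3 arrays. Points are arrays, horizontal lines are group means, error bars are SD, and the dotted line is the filter at log2 6.01. The zig-3 points of fasted males, from 10.87 to 11.39, lie above those of fasted hermaphrodites, from 9.28 to 9.85, and the zig-8 points all lie under the filter.

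The largest change among the members was that of zig-3, one of the axon maintenance genes. Its log2 signal was 7.77, 7.24 and 7.37 in fed hermaphrodites and 9.85, 9.28 and 9.54 in fasted hermaphrodites. It was 7.32, 6.92 and 8.21 in fed males and 10.87, 11.39 and 11.31 in fasted males. The fed groups overlapped, both fasted groups lay above them, and every fasted male lay above every fasted hermaphrodite. In hermaphrodites the rise was 2.10 ± 0.29 (SE), or 4.29-fold (limma, adjusted p = 3.96e-04). In males it was 3.71 ± 0.29, or 13.05-fold (limma, adjusted p = 3.88e-06), and 0.0691% of the tested probe sets had a higher change there.

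The rise of zig-3 was larger in males by 1.61 ± 0.41 (limma, interaction, adjusted p = 0.0423). This was the only member called in that test, in which 5.28% of all probe sets were called (3.82% with a higher and 1.46% with a lower change in males). The call was close to the threshold and ended in 12 of 22 alternatives, where the difference was 1.32 to 1.72 and adjusted p 0.0503 to 0.0982. These include median centring of the arrays (1.44, adjusted p = 0.0859) and leaving out single arrays, namely any of the fed hermaphrodites, fasted hermaphrodite 2 or 3, fed male 1 or 2, or fasted male 2 or 3. In fed worms the sex difference of zig-3 was 0.03, with a 95% confidence interval from -0.60 to 0.66, and in fasted worms males were higher by 1.63 ± 0.29 (adjusted p = 2.60e-04). Its calls for fasting in each sex and for sex in fasted worms held in all 23 alternatives each.

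Its partner in axon maintenance, zig-4, moved far less. The log2 signal of zig-4 was 6.72, 7.11 and 6.82 in fed hermaphrodites and 7.37, 7.89 and 7.46 in fasted ones. It was 7.07, 6.93 and 6.83 in fed males and 6.79, 7.15 and 7.17 in fasted males. Only the fasted hermaphrodites stood apart, and they lay above all other arrays. The rise in hermaphrodites was 0.69 ± 0.21 (limma, adjusted p = 0.0491), a call that ended in 15 of 22 alternatives (adjusted p up to 0.177), among them all 3 other scalings and 10 of the 12 fits without 1 array. In males the change was 0.10, with an interval from -0.35 to 0.54, and the difference between the sexes was not called (-0.59 ± 0.29, adjusted p = 0.257). In fasted worms zig-4 was lower in males by 0.53 on the log2 scale (change of -0.53 ± 0.21, limma, adjusted p = 0.0339), the only member lower in males. That call ended without fasted hermaphrodite 2 (-0.38, adjusted p = 0.139), without fasted male 1 (-0.41, adjusted p = 0.127), without the filter (adjusted p = 0.0577) and with only the arrays compared (adjusted p = 0.0627), while quantile normalization gave -1.05.

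The genes zig-3 and zig-4 lie next to each other on chromosome X, with 0 annotated genes between them in the RefSeq table of assembly WBcel235. The 3 protein-coding genes on either side were therefore examined, a step chosen after the values were seen. The next gene but one beyond zig-3 is dct-1, a homolog of the mitophagy receptor gene BNIP3, and it rose by 1.01 ± 0.18 in hermaphrodites (limma, adjusted p = 0.00275) and 1.59 ± 0.18 in males (adjusted p = 6.12e-05). Between them lies tnt-3, a troponin T gene, with changes of 0.47 ± 0.23 and 0.28 ± 0.23 that were not called. The other neighbours measured, C39D10.1, C39D10.7 and the sideroflexin gene sfxn-2, were not called in either sex, with changes from -0.59 to 0.10.

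**Figure D2:**
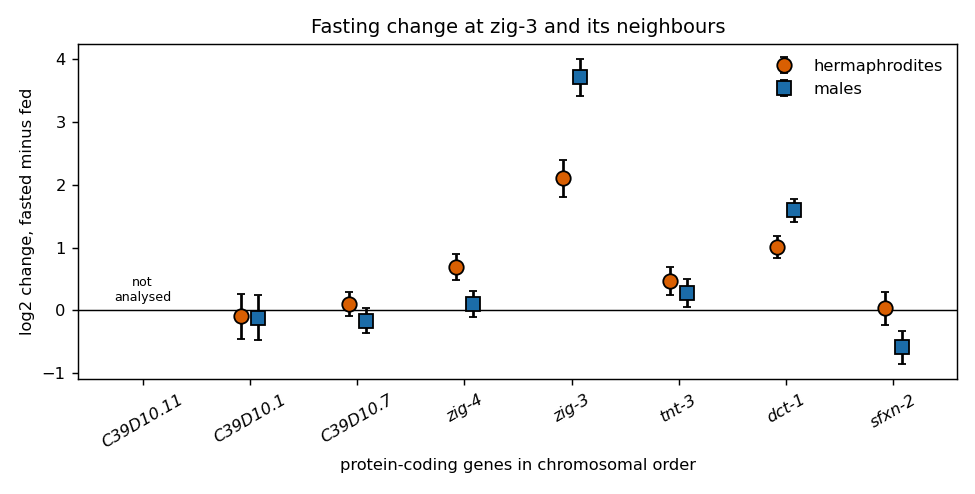
Fasting change (log2, fasted minus fed, error bars SE) of zig-3, zig-4 and the 3 protein-coding genes on either side, in chromosomal order, with 3 arrays per group. Circles are hermaphrodites and squares are males. zig-3 stands at 2.10 and 3.71, its neighbour zig-4 at 0.69 and 0.10, and dct-1 at 1.01 and 1.59.

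Smaller rises in males were those of zig-2 and zig-6. The log2 signal of zig-2, another PVT-expressed member, was 7.30, 7.72 and 7.25 in fed males and 8.52, 7.95 and 8.87 in fasted males. It was 7.72, 7.56 and 6.81 in fed hermaphrodites and 7.73, 8.21 and 7.74 in fasted ones, so fed and fasted arrays did not overlap in either sex, though the gap in hermaphrodites was narrow. The rise in males was 1.02 ± 0.29 (limma, adjusted p = 0.0185), and the change in hermaphrodites of 0.53 ± 0.29 was not called (adjusted p = 0.278). No overlap between fed and fasted arrays was found for 30.2% of probe sets in hermaphrodites and 44.6% in males. The male call of zig-2 ended after median centring (0.81, adjusted p = 0.0598) and without fed male 1 (0.96, adjusted p = 0.0588), fed male 3 (0.94, adjusted p = 0.0577), fasted male 1 (0.99, adjusted p = 0.0521) or fasted male 3 (0.81, adjusted p = 0.0757).

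The log2 signal of zig-6 was 7.14, 6.99 and 6.94 in fed males and 7.57, 7.74 and 7.90 in fasted males. In hermaphrodites it was 7.23, 7.06 and 7.03 fed and 7.17, 7.74 and 7.77 fasted, where 1 fasted array lay among the fed ones. The rise in males was 0.72 ± 0.20 (limma, adjusted p = 0.0168), and the change in hermaphrodites was 0.45 ± 0.20 (adjusted p = 0.175). The male call ended after median centring (0.50, adjusted p = 0.0771) and without fasted male 3 (0.64, adjusted p = 0.0613). Since the median of all probe sets rose by 0.23 in fasted males, zig-2 stood 0.79 and zig-6 0.48 above that median. Neither gene was called between the sexes, fed or fasted. For zig-2 the difference between male and hermaphrodite fasting changes had an interval from -0.38 to 1.37, and for zig-6 from -0.34 to 0.87.

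The member that fell was zig-7. Its log2 signal was 9.39, 9.35 and 9.49 in fed hermaphrodites and 8.55, 8.51 and 8.14 in fasted ones. It was 10.83, 10.84 and 10.88 in fed males and 10.32, 10.44 and 10.04 in fasted males. On the probe set used, no 2 of the 4 groups overlapped, and the order from lowest to highest was fasted hermaphrodites, fed hermaphrodites, fasted males and fed males. Fed and fasted arrays did not overlap for 30.2% of all probe sets in hermaphrodites and 44.6% in males. Arrays of the sexes did not overlap for 78.3% when fed and 74.3% when fasted. The fall was -1.01 ± 0.14 in hermaphrodites (limma, adjusted p = 3.96e-04) and -0.58 ± 0.14 in males (adjusted p = 0.00855), and the difference between these was not called (0.43 ± 0.20, adjusted p = 0.222). Males were higher by 1.44 ± 0.14 when fed (adjusted p = 1.26e-06) and 1.87 ± 0.14 when fasted (adjusted p = 1.40e-07).

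A second probe set of zig-7, almost as bright (mean 9.71 against 9.73 over the 12 arrays), was more variable, with an SD of 0.73 against 0.02 in fed males. It changed by -1.15 ± 0.35 in hermaphrodites (limma, adjusted p = 0.0521) and by -0.50 ± 0.35 in males (adjusted p = 0.332), so neither fasting fall was called on it. Fed males (9.90 to 11.24) and fasted males (9.92 to 10.62) overlapped on it. Both sex differences were called on it too, at 1.21 ± 0.35 (adjusted p = 0.00716) in fed worms and 1.86 ± 0.35 (adjusted p = 3.95e-04) in fasted worms. The probe set used here carries the suffix that Affymetrix gives to probes matching several transcripts, as does that of zig-5.

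**Figure D3:**
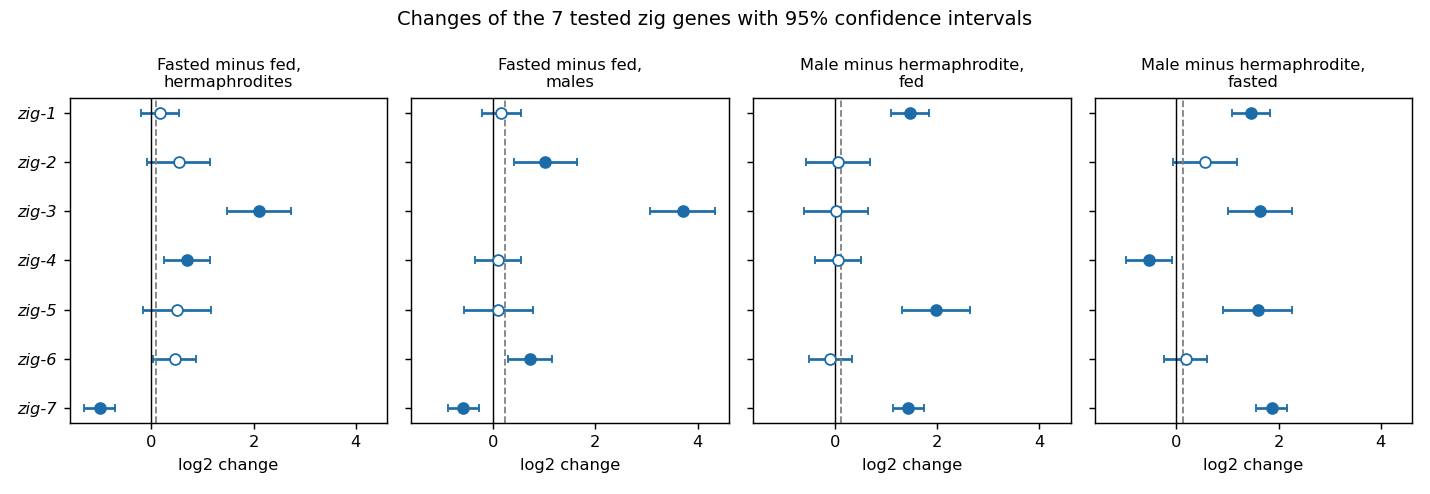
Changes (log2) of the 7 tested zig genes in 4 comparisons, with 95% confidence intervals from limma on 3 arrays per group. Filled points were called, the solid line is 0 and the dashed line is the median of all tested probe sets. zig-3 at 3.71 in males is the largest change, zig-7 is the only member below 0 in both fasting comparisons, and zig-1, zig-5 and zig-7 lie between 1.44 and 1.98 in the fed sex comparison.

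The other members with a sex difference were zig-1 and zig-5, both expressed in PVT, and neither was called for fasting in either sex. The log2 signal of zig-1 was 6.84, 7.21 and 6.60 in fed hermaphrodites, 7.08, 7.08 and 6.99 in fasted hermaphrodites, 8.31, 8.40 and 8.35 in fed males, and 8.34, 8.62 and 8.58 in fasted males. All 6 males lay above all 6 hermaphrodites, and fed and fasted arrays overlapped within each sex. Arrays of the sexes did not overlap for 78.3% of probe sets when fed and 74.3% when fasted. Males were higher by 1.47 ± 0.17 when fed (limma, adjusted p = 7.54e-06) and by 1.46 ± 0.17 when fasted (adjusted p = 9.16e-06). Its fasting change had an interval from -0.21 to 0.55 in hermaphrodites and from -0.22 to 0.54 in males.

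The log2 signal of zig-5, which acts in keeping head neurons in place, was 5.58, 5.28 and 6.67 in fed hermaphrodites and 6.22, 6.44 and 6.38 in fasted ones. It was 7.74, 7.60 and 8.14 in fed males and 7.76, 7.95 and 8.08 in fasted males, again with all males above all hermaphrodites. Of the fed hermaphrodite values 2 lay under the filter. The difference was 1.98 ± 0.31 in fed worms (limma, adjusted p = 8.24e-05) and 1.59 ± 0.31 in fasted worms (adjusted p = 5.46e-04). With a pseudocount at the 40th percentile of the signal, added before the log, the fed difference was 1.23. Without fed hermaphrodite 3, the highest of its group, the fasting change of zig-5 in hermaphrodites was 0.91 and was called (adjusted p = 0.0282), against 0.50 ± 0.31 with it (adjusted p = 0.351).

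The remaining head-neuron maintenance gene, zig-8, could not be tested. Its log2 signal lay between 1.76 and 5.77, under the filter on all 12 arrays and between the percentiles 4.60 and 33.4 of the values on the array. It was 2.73, 2.03 and 3.12 in fed hermaphrodites, 2.08, 1.76 and 4.69 in fasted hermaphrodites, 2.41, 5.77 and 2.17 in fed males, and 5.53, 4.56 and 4.12 in fasted males. The groups next to each other in the order of means overlapped throughout. Tested without the filter, it was not called in any of the 5 comparisons (limma, adjusted p from 0.133 to 0.943).

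Most markers of neurons, body wall muscle and intestine were higher in males, and so were all tested sperm and male somatic markers. The members zig-1, zig-5 and zig-7 were higher too, while oocyte and maternal markers were lower. The other 4 tested members, zig-2, zig-3, zig-4 and zig-6, differed by -0.09 to 0.06 in fed worms and were not called there. In whole worms, fewer cells of a type and less RNA per cell cannot be told apart. Of 17 tested neuron markers 12 were higher in fed males and 0 were lower (median 1.60), of 17 body wall muscle markers 17 were higher (median 1.52), and of 13 intestine markers 11 were higher and 0 lower (median 1.13). Of 11 sperm markers 11 were higher (median 4.78), and of 9 male somatic markers 9 were (median 4.29). Of 5 hypodermis markers 2 were higher and 0 lower (median 0.38). Over all tested probe sets 38.9% were called higher and 35.9% lower in fed males. The summed signal of 19 neuron markers was 8960 to 9772 in fed hermaphrodites, 10227 to 10501 in fasted hermaphrodites, 22026 to 23887 in fed males and 25054 to 25802 in fasted males. That of 15 oocyte and maternal markers was 140982 to 149697 in fed hermaphrodites and 4583 to 4793 in fed males, and all 15 were lower in males. No marker of these lists was at 0. The part of tissue composition in the sex differences of the members was not tested.

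Some markers of body wall muscle, hypodermis and intestine fell with fasting, as did zig-7. Over all tested probe sets 5.69% fell and 5.72% rose in hermaphrodites, and 8.31% fell and 19% rose in males. The interaction test called 3.82% with a higher and 1.46% with a lower change in males. Of 17 body wall muscle markers 5 fell in hermaphrodites (median -0.28) and 11 in males (median -0.78), and none rose. Their summed signal over 18 genes was 43324 to 54049 in fed and 35634 to 39430 in fasted hermaphrodites, and 113089 to 123380 in fed and 56606 to 73740 in fasted males. Of 5 tested hypodermis markers 2 fell in hermaphrodites and 3 in males. Their summed signal over 13 genes was 9214 to 19062 in fed and 3894 to 4363 in fasted hermaphrodites, and 24296 to 40365 in fed and 3479 to 6444 in fasted males. Of 13 intestine markers 7 fell and 1 rose in hermaphrodites (median -0.66), and 4 fell and 1 rose in males (median -0.40). Their summed signal was 53614 to 62126 in fed and 18083 to 18563 in fasted hermaphrodites, and 103000 to 128958 in fed and 69164 to 93052 in fasted males. No marker of these lists was at 0, and their part in the fall of zig-7 was not tested. Beside the rise of zig-3, 2 of 17 neuron markers rose in hermaphrodites and 0 in males, with medians of 0.20 and 0.12. The hermaphrodite count was 0 after quantile normalization and on hybridization controls and 1 after median centring. Of 15 oocyte and maternal markers 8 rose in fasted males and 0 fell (median 0.55), 0 were called in hermaphrodites (median -0.19), and 5 were called with a higher change in males in the interaction test. Of these markers 5 rose in males after quantile normalization and after median centring, and 9 on hybridization controls. Under each of these scalings 3 of the markers were called in the interaction test. Their summed signal was 4583 to 4793 in fed and 6750 to 7509 in fasted males, none was at 0, and their part in the rise of zig-3 was not tested. Of the regulators of PVT identity listed, lim-6 and ceh-14, neither passed the filter.

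Among 10 tested genes of nervous system maintenance, 2 rose and 0 fell in fasted hermaphrodites, and 1 rose and 1 fell in males. In males it was 1 that rose and 3 that fell after quantile normalization and after median centring. Over all tested probe sets 11.4% were called for fasting in hermaphrodites, 27.3% in males and 74.8% for sex in fed worms. The fibroblast growth factor receptor gene egl-15 rose by 0.79 ± 0.21 in hermaphrodites (limma, adjusted p = 0.0285) and 1.24 ± 0.21 in males (adjusted p = 0.00103), and the syntrophin gene stn-2 rose by 0.79 ± 0.20 in hermaphrodites (adjusted p = 0.0261). The change of stn-2 in males was smaller than in hermaphrodites by 1.27 ± 0.29 on the log2 scale (interaction of -1.27, limma, adjusted p = 0.0282). The papilin gene mig-6 fell by 1.38 in males (-1.38 ± 0.39, adjusted p = 0.0206). The L1 gene sax-7, partner of zig-5 and zig-8, was not called, with 0.50 ± 0.25 in hermaphrodites and 0.56 ± 0.25 in males. In the sex comparison of fed worms 5 of the 10 were higher in males, led by the hemicentin gene him-4 (1.56 ± 0.35), the basement membrane gene dig-1 (1.52 ± 0.15) and stn-2 (1.47 ± 0.20), and the laminin gene epi-1 was lower (-0.30, limma, adjusted p = 0.0421). After quantile normalization epi-1 was at 0.016 (adjusted p = 0.917), and the perlecan gene unc-52, one of the 5, lost its call there and on hybridization controls (adjusted p = 0.0779 and 0.0939). The hermaphrodite rises of egl-15 and stn-2 ended after quantile normalization and on hybridization controls (adjusted p from 0.0526 to 0.0991), and on those controls the stn-2 interaction did too (0.0808). 

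Of 31 tested genes of the wider immunoglobulin superfamily, 3 rose and 2 fell in hermaphrodites and 3 rose and 3 fell in males. Over all tested probe sets 11.4% were called for fasting in hermaphrodites and 27.3% in males. The deepest falls in both sexes were oig-2, a gene for a protein with a single immunoglobulin domain (-2.16 ± 0.20 and -2.41 ± 0.20, limma, adjusted p = 1.85e-05 and 6.80e-06), and zig-12 (-1.37 ± 0.16 and -1.05 ± 0.16, adjusted p = 1.10e-04 and 5.15e-04). The rises in hermaphrodites were egl-15, the netrin receptor gene unc-5 (0.62 ± 0.17) and the Robo gene sax-3 (0.59 ± 0.17). In males they were egl-15, oig-3 (0.72 ± 0.22) and the Ror receptor gene cam-1 (0.54 ± 0.14), and the contactin gene rig-6 fell (-0.45 ± 0.15). Of these, unc-5, sax-3, oig-3, cam-1 and rig-6 each lost the call under at least 1 other scaling, as did egl-15 in hermaphrodites, while none of them changed sign. All 3 hermaphrodite rises ended both after quantile normalization and on hybridization controls. Between fed males and hermaphrodites 15 of the 31 were higher in males and 6 lower, from 2.65 ± 0.15 for rig-6 and 2.15 ± 0.23 for ver-2 to -1.93 ± 0.19 for igcm-3. In that comparison 74.8% of all tested probe sets were called.

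The patterns of the members across the 12 arrays fell along these lines. Pearson's r was 0.87 between zig-1 and zig-5, 0.81 between zig-1 and zig-7, 0.82 between zig-3 and zig-6, and 0.77 between zig-2 and zig-6, while it was 0.31 between zig-3 and zig-4. These values describe arrays that share their groups, and of deviations from the group means r was -0.67 for zig-1 and zig-5 and -0.14 for zig-3 and zig-6. Likeness was ranked only among tested genes with a locus name, that is, letters and a number as in trx-2. Genes known only by a sequence name were left out. Among those ranked, the genes most like zig-3 over the 12 arrays were the mitochondrial thioredoxin gene trx-2 (r = 0.967), the linker histone gene hil-1 (0.967) and the mitochondrial import gene timm-23 (0.966). The most like zig-7 was zig-12 (r = 0.987), followed by tag-10 and the scavenger receptor gene scav-1 (0.986 each). The most like zig-1 was the guanylyl cyclase gene gcy-12 (r = 0.994), and the most like zig-5 was gar-1, which encodes a muscarinic acetylcholine receptor (0.982). The sex difference of gcy-12 was far larger than that of zig-1, at 5.98 against 1.47 fed and 6.71 against 1.46 fasted. In hermaphrodites gcy-12 lay under the filter on every array. For zig-2, zig-4 and zig-6 the highest r was lower, at 0.881 with the cytochrome b5 gene cytb-5.2, 0.928 with nssp-88 and 0.920 with the intraflagellar transport gene ift-43.

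**Figure D4:**
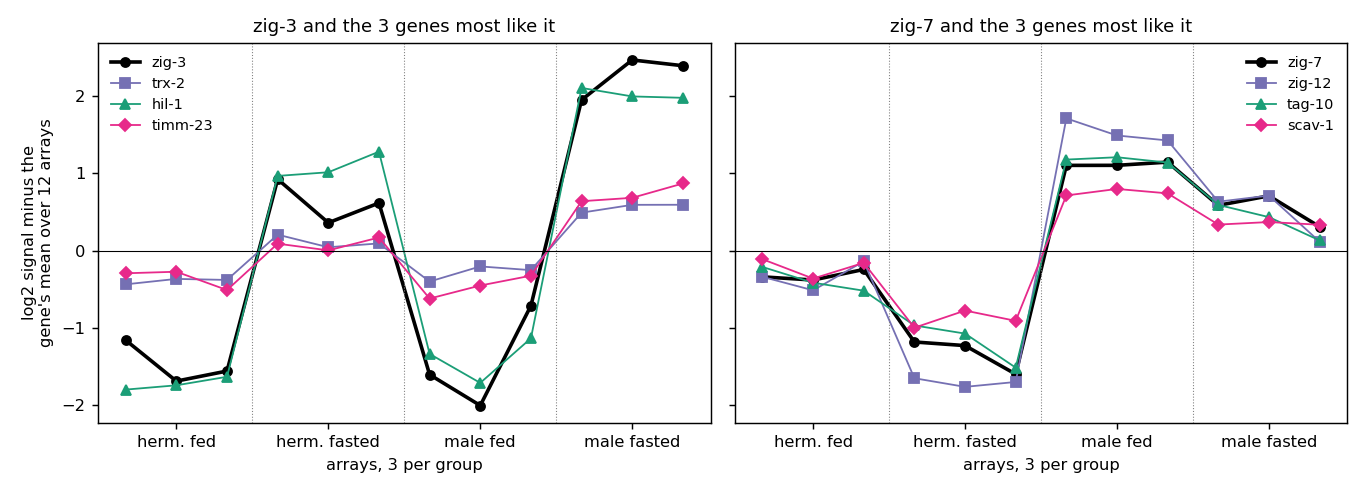
Log2 signal of zig-3 (left) and zig-7 (right), minus each gene's mean over the 12 arrays, with the 3 arrays of each group side by side. Shown in the same way are the 3 genes with the highest Pearson r to each, among tested genes with a locus name. Lines only join the points of a gene. trx-2 and timm-23 follow zig-3 over a narrower range (fasting changes in males of 0.84 and 1.19 against 3.71), and hil-1 over a similar one (3.42), while zig-12 follows zig-7.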

How the data were processed

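The values used are the log2 signals of 22625 probe sets on 12 arrays, deposited as a single table. Per the submitters' processing notes the authors used MAS5, with no version given. On the linear scale every array had a 2% trimmed mean of 500.1 to 500.2, and no further normalization was done. Detection calls were not used here. The 77 control probe sets were left out. Names came from the platform annotation, with symbols updated by gene ID from the WBcel235 gene table. Group means of all 12 arrays were fitted by lmFit and tested two-sided by eBayes with a variance trend (limma 3.58.1, R 4.3.3, median total degrees of freedom 12.2) for 5 contrasts, after a check on simulated data. Tables and figures were made with Python 3.11.15, pandas 2.3.3, numpy 2.4.6 and matplotlib 3.10.9. The labels number the samples of a group as biological replicates, and the design text gives 3 independent experiments with all 4 groups in each. Whether a replicate number marks an experiment is not stated in the sources used here.

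Named genes were all 8 members, 4 checks of sex, up to 3 called genes per list, direction and comparison, and the 3 genes most like each tested member. The last were sought only among tested genes with a locus name. The members and the gene lists were chosen with earlier results of these data known. The deviations of same-numbered fed and fasted arrays were weakly correlated (r = 0.189, 0.129 and 0.259 in hermaphrodites, 0.157, 0.119 and 0.274 in males). Between same-numbered hermaphrodite and male arrays r was 0.082, 0.080 and 0.204 fed and 0.133, 0.052 and 0.197 fasted. No r of differently numbered arrays stands beside these values. A replicate block was fitted as an alternative. Others were pseudocounts of 64.6 and 20.1 (the 40th and 20th percentiles of the signal), no filter and one at the 60th percentile, 3 scalings, array weights, no trend, only the arrays compared, and each array left out. The planned motif search in promoters was not run, since no promoter sequence was used here.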

Additional observations from a re-analysis of the deposited data

Results flagged for a closer look

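One result stood out as differing between the sexes. The fasting change of zig-3 was larger in males than in hermaphrodites by 1.61 on the log2 scale (limma, interaction term, adjusted p = 0.0423). That call ended in 12 of 22 alternatives. Within each sex all 3 fasted arrays lay above all 3 fed arrays, which does not measure the difference between the sexes. Fed and fasted arrays did not overlap for 30.2% of probe sets in hermaphrodites and 44.6% in males. Groups of 3 arrays were not screened for single outlying arrays.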

How the results depend on the processing

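Of the 16 calls of members over the 5 comparisons, 11 were kept in every alternative that tested them on the same probe set, and none of the 16 changed sign. The 5 that ended in some were zig-3 for the difference between the sexes, zig-4 for fasting in hermaphrodites and for sex in fasted worms, and zig-2 and zig-6 for fasting in males. The number of members called for fasting in males was 2 after median centring, against 4. For the difference between the sexes it was 0, against 1, without the filter, after median centring and without the variance trend. Leaving out single arrays gave 2 to 4 members for fasting in hermaphrodites, 2 to 4 in males, 0 to 1 for the difference, 3 for sex in fed worms and 4 to 6 in fasted worms. The replicate block changed no call of a member (for zig-3 in hermaphrodites adjusted p = 5.21e-04, for the difference 0.0300), while it raised the probe sets called for the difference from 840 to 1641. Array weights gave 1522 of these and hybridization controls 354, and single arrays left out gave as few as 428.

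Sign changes concerned 8 uncalled results. For fasting in males, zig-1, zig-4 and zig-5 were at -0.073, -0.090 and -0.12 after quantile normalization and -0.057, -0.12 and -0.11 after median centring. For sex in fed worms, zig-2, zig-3 and zig-4 were at -0.28, -0.27 and -0.44 after quantile normalization, -0.017, -0.051 and -0.020 after median centring and -0.15, -0.18 and -0.15 on hybridization controls, and zig-3 was at -0.29 with array weights. For sex in fasted worms zig-6 was at -0.25 and -0.069 after quantile normalization and median centring. The zig-1 difference of -0.01 was 0.028 and 0.0072 with the higher and lower pseudocount, 0.029 on hybridization controls and 0.031 with array weights. With single arrays left out, it ran from -0.17 to 0.13, zig-5 in males from -0.0092 to 0.26, and for sex in fed worms zig-2 from -0.22 to 0.24, zig-3 from -0.34 to 0.31 and zig-4 from -0.024 to 0.17, and in fasted worms zig-6 from -0.019 to 0.29. Uncalled results that passed in 1 alternative were zig-6 for sex in fed worms after quantile normalization (-0.55, adjusted p = 0.0163), zig-2 for sex in fasted worms without fasted male 2 (0.80, adjusted p = 0.0285), and zig-5 and zig-6 for fasting in hermaphrodites without fed hermaphrodite 3 (0.91) and fasted hermaphrodite 1 (0.65). The cause was not tested. The signal over background of zig-8 was too low for any statement on its change.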

Other observations

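In fed worms the sex differences of members on chromosome X and on autosomes did not overlap, a grouping made after the values were seen. The 4 tested members on X, zig-2, zig-3, zig-4 and zig-6, differed between fed males and fed hermaphrodites by -0.09 to 0.06, and none was called, where 62.8% of 2152 tested probe sets on X were called. After quantile normalization these 4 genes were at -0.28, -0.27, -0.44 and -0.55, and zig-6 was called lower in males (limma, adjusted p = 0.0163). The 3 on autosomes, zig-1, zig-5 and zig-7, were higher in males by 1.44 to 1.98, where 37.7% of 12825 autosomal probe sets were called higher. In fasted males 3 of the 4 on X rose, beside 9.39% of probe sets on X, and 0 of the 3 on autosomes, beside 21.2% of autosomal probe sets. Among these rises, the calls of zig-2 and zig-6 ended after median centring (limma, adjusted p = 0.0598 and 0.0771). In the other comparisons the ranges overlapped. In fasted worms the sex differences ran from -0.53 to 1.63 on X, with zig-3 called higher and zig-4 lower in males, and from 1.46 to 1.87 on autosomes. With 7 genes this is a description and no test was made.

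Of zig genes outside the 8, zig-9 was higher in fed males by 0.51 (limma, adjusted p = 0.0178) and zig-10 in fasted males by 1.17 (adjusted p = 0.0271). Neither was called for fasting. The zig-9 call ended after median centring (0.44, adjusted p = 0.0514) and on hybridization controls (0.31, adjusted p = 0.123), and the zig-10 call after quantile normalization (0.61, adjusted p = 0.269), median centring (0.92, adjusted p = 0.0783) and on hybridization controls (adjusted p = 0.0501). The calls of zig-12, which fell with fasting in both sexes and was higher in males by 1.87 fed and 2.19 fasted, held under these 3 scalings.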
